A study of Mus musculus with 18 samples.

Results

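The comparison described here sets cells carrying the orpk mutation against wild-type (WT) cells, both kept without flow. Its members are the 6 static libraries of 18 in the series, 3 per genotype, chosen by the genotype and protocol given in the labels. The cells are labelled embryonic aortic endothelial cells, from wild-type mice or from Tg737orpk/orpk mice, whose genotype is given as an insertion mutation in IFT88. Both genotypes were plated on gelatin-coated slides, grown to confluence and deprived of serum for 24 h, and the other libraries of the series were then put under laminar flow of 2 or 30 dyn/cm2 for 48 h. The time for which the static cells were kept is not given in the sources used here. The labels do not say how many animals, isolations or cell lines stand behind a genotype. A difference between the lines and a difference made by the mutation therefore cannot be told apart, and p-values measure only the spread between libraries, which may be technical. Poly(A) RNA was read as single ends, and values are reads per gene, given below as TMM-normalised CPM (reads of a gene per 1000000 of the scaled library), with means ± SD over 3 libraries.

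Primary cilia are single antenna-like organelles built on the mother centriole. Intraflagellar transport (IFT) trains, made of the IFT-A and IFT-B protein complexes, carry cargo up and down the cilium, and Ift88 encodes an IFT-B subunit. The orpk allele is a transgene insertion that lowers Ift88 function without abolishing it, and orpk mice have short cilia and cystic kidneys. Hedgehog signalling in vertebrates passes through the cilium. In endothelium the cilium projects into the lumen and takes part in sensing slow or disturbed flow, and loss of cilia from endothelial cells has been linked to a transition towards mesenchymal gene expression.

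Of 21647 listed genes, 13058 had enough reads to be tested. A gene passed when its Benjamini-Hochberg-adjusted p from edgeR's quasi-likelihood test was under 0.05, and every gene called higher or lower in orpk below passed unless its value is said not to. Of the tested genes 87.8% passed, 44.4% higher and 43.4% lower in orpk, while 22.0% were higher and 18.2% lower by more than 2-fold, which is 1 on the log2 scale. For 88.1% the 3 libraries of one genotype all lay outside the range of the other. These shares are the background against which each count below is read. A value in parentheses after a gene is its log2 fold change, orpk minus WT, ± SE. The SE is derived from the test statistic and can fall below counting error where a genotype has few reads. For genes with 1 to 3 reads in a genotype it is the ratio of the higher to the lower genotype with its 95% counting interval, and for genes with 0 reads a lower bound on the fold. The median log2 fold change (orpk minus WT) was 0.01, or -0.21 with library totals as the only scaling. The static libraries held 13626480 to 17243680 reads, and the first principal component took 98.46% of their variance and separated the genotypes. The 100 most abundant genes took 19.88% to 20.07% of reads in orpk and 12.89% to 13.05% in WT.

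Ift88 (chromosome 14, 57424062 to 57517936, plus strand, GRCm38) was 13.4, 17.4 and 15.98 CPM in the WT libraries and 7.49, 8.46 and 7.47 CPM in the orpk libraries. All orpk libraries lay below all WT libraries, and the gene was still transcribed (log2 fold change -0.99 ± 0.10, edgeR adjusted p = 5.61e-12). Counts per gene do not show whether the remaining transcript runs through the insertion, and Ift88 overlaps an annotated gene on the other strand. Of 30 tested genes (of 31 listed) of intraflagellar transport, 15 were higher and 12 lower, with a median log2 fold change of 0.15 (-0.07 with library totals). Of them 4 were higher by over 1 and 0 lower by over 1, or 4 and 3 with library totals. Wdr19, an IFT-A subunit, was 47.8 ± 2.24 CPM in WT against 166 ± 4.09 CPM in orpk (log2 fold change 1.79 ± 0.05). Hspb11 (1.63 ± 0.10), the IFT-B subunit also called Ift25, and Ttc30b (1.96 ± 0.12), which encodes an IFT-B component, were higher too. Ttc30a1 had 0 reads in WT and 143 in orpk, and it is a close copy of Ttc30b, so reads could have been split between them. After Ift88, the lowest members were Ift22 (-0.96 ± 0.07) and Traf3ip1 (-0.90 ± 0.06), the latter the IFT-B subunit also called Ift54. The retrograde motor chain Dync2h1 (-0.68 ± 0.06) was lower.

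Of 35 tested genes (of 36 listed) of the BBSome, which moves membrane proteins through the cilium, and of the transition zone at its base, 19 were higher and 12 lower, with a median log2 fold change of 0.16, or 14 and 16 with library totals (median -0.05). Cc2d2a, a transition-zone protein, was 3.003, 3.57 and 3.79 CPM in WT against 30.6, 29.8 and 27.4 CPM in orpk, and the genotypes did not overlap (log2 fold change 3.08 ± 0.10). Other transition-zone genes were lower, among them B9d2 (-1.35 ± 0.08), Nphp4 (-1.21 ± 0.07), Tctn3 (-1.15 ± 0.06) and Cep290 (-1.14 ± 0.07). The BBSome genes Bbs7 (1.52 ± 0.08) and Bbs1 (-0.88 ± 0.09) differed in opposite directions.

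**Figure D1:**
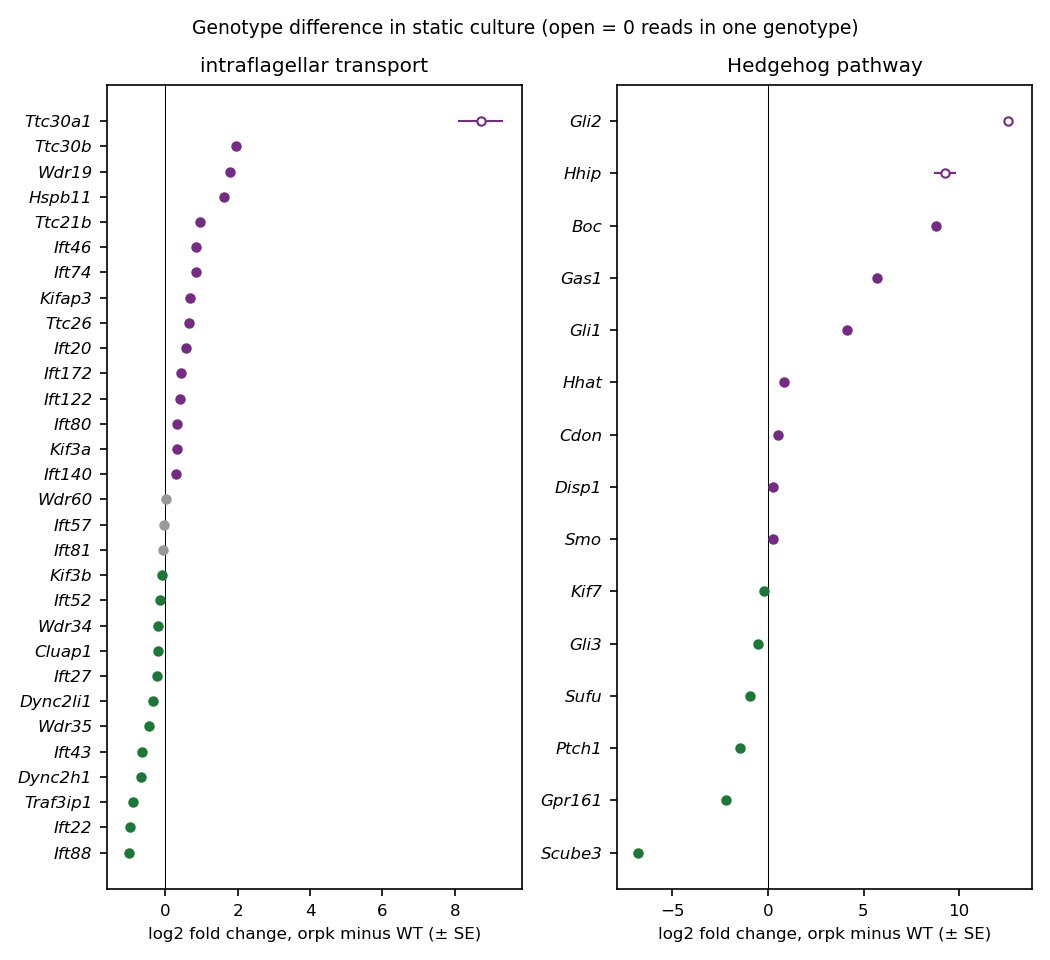
Log2 fold change of orpk against WT in static culture (x axis, ± SE) for tested intraflagellar transport and Hedgehog pathway genes (y axis). Of the Hedgehog genes, 1 is not shown. Points are purple where higher, green where lower and grey where not past the threshold. Open circles mark genes with 0 reads in one genotype, whose fitted value depends on the prior count. Ift88 is the lowest IFT gene, and Gli2 is the highest Hedgehog gene.

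Hedgehog pathway genes differed in both directions. Of 16 tested genes (of 21 listed), 10 were higher and 6 lower, with a median log2 fold change of 0.39, and 6 were higher and 3 lower by over 1. The ligand genes Shh, Ihh and Dhh had 0, 6 and 3 reads in WT and 0, 2 and 2 in orpk and were not tested. Gli2, the main activator among the pathway's transcription factors, had 0 reads in WT and 49.3, 48.9 and 46.5 CPM in orpk (at least 756-fold higher against a floor of 3 reads over the WT libraries). Boc, a co-receptor for the ligands, was 0.0808 ± 0.0867 CPM in WT against 41.3 ± 2.18 CPM in orpk. Gas1, another co-receptor, was 5.11 ± 0.268 CPM in WT against 269 ± 17.5 CPM in orpk. Among genes that the pathway itself induces, Gli1 (4.13 ± 0.20) and Hhip (at least 75.5-fold higher) were higher, while Ptch1, the receptor and best-known target, was lower at 132 ± 1.97 CPM in WT against 48.4 ± 0.849 CPM in orpk (log2 fold change -1.44 ± 0.05). Smo, the signal transducer, was 179 ± 2.58 CPM in WT against 215 ± 5.204 CPM in orpk, a difference of 0.26 ± 0.04 that did not pass with library totals (edgeR adjusted p = 0.202). Gpr161 (-2.21 ± 0.06), a ciliary receptor that restrains the pathway, the inhibitor Sufu (-0.94 ± 0.05) and the secreted protein gene Scube3 (-6.82 ± 0.10) were lower, and Gli3, source of the main repressor, was slightly lower (-0.50 ± 0.04).

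Channels and receptors credited with sensing flow differed in both directions in static culture. Of 12 tested genes (of 15 listed), 6 were higher and 6 lower, an even split like that over all tested genes (44.4% and 43.4%). Trpv4, a calcium channel of endothelium and renal tubule, was 284, 265 and 289 CPM in WT against 1.43, 1.16 and 1.68 CPM in orpk. No library of one genotype came near the other (log2 fold change -7.62 ± 0.08, edgeR adjusted p = 1.39e-46). Of the polycystin genes, whose products form a ciliary channel complex, Pkd1 (1.07 ± 0.08) was higher and Pkd2 (-0.25 ± 0.04) lower. The mechanically gated channel gene Piezo1 was 138 ± 6.68 CPM in WT against 299 ± 7.36 CPM in orpk, and its relative Piezo2 (3.88 ± 0.31) was higher too. The potassium channel gene Kcnj2 was 0.0451 ± 0.0391 CPM in WT against 39.6 ± 2.38 CPM in orpk, and the adhesion receptor gene Adgrg1 (-3.45 ± 0.06) was lower.

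The endothelial label was checked against its markers, and several were at or near 0 reads in both genotypes. VE-cadherin (Cdh5), the adhesion protein of endothelial junctions, had 0 reads in WT and 0.499, 0.711 and 0.586 CPM in orpk. Pecam1, another junctional protein, was 0.914, 1.05 and 1.84 CPM in WT against 0.571, 0.452 and 0.2196 CPM in orpk, the lower of the genotypes (log2 fold change -1.62 ± 0.38). The VEGF receptor gene Kdr had 0 reads in WT and 2.64, 3.04 and 3.59 CPM in orpk, and Erg, an endothelial transcription factor, 0 reads and 1.43, 1.81 and 0.659 CPM. Tie1 had 0 reads in WT and 2 in orpk, Emcn 0 and 3, and Sox17, Fli1, Cldn5 and Robo4 had 0 in both. Both genotypes thus lacked several defining endothelial transcripts, and WT had 0 reads of Cdh5, Kdr and Erg where orpk had few.

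Over the whole endothelial list of 25 tested genes (of 40 listed), 16 were higher and 8 lower, with a median log2 fold change of 1.58. Its summed level was 415 to 456 CPM in the WT libraries and 1129 to 1160 CPM in the orpk libraries. Cd34 alone made up most of the orpk sum, and what remained without it lay close to the WT sum. Cd34, a sialomucin of endothelial and mesenchymal progenitors, was 0.131, 0.2099 and 0.517 CPM in WT against 695, 672 and 688 CPM in orpk (log2 fold change 11.13 ± 0.10). The lectin gene Clec14a (at least 309.6-fold higher), the sphingosine-1-phosphate receptor gene S1pr1 (at least 347-fold higher), the von Willebrand factor gene Vwf (ratio 69.7, interval 23.5 to 341), the angiopoietin receptor gene Tek (ratio 39.2, interval 10.5 to 329.9) and the endoglin gene Eng (2.16 ± 0.19) were also higher in orpk. Others were lower in orpk, among them the phosphatase gene Ptprb (at least 116-fold lower), the adhesion molecule gene Mcam (-3.38 ± 0.06), Ecscr (-3.32 ± 0.15) and endothelial nitric oxide synthase, Nos3, at 2.45 ± 0.1901 CPM in WT against 0.352 ± 0.1396 CPM in orpk (log2 fold change -2.79 ± 0.33). Flt1, a VEGF receptor, was 40.4 ± 1.04 CPM in WT against 93.6 ± 1.38 CPM in orpk, read in every library. Of the shear-responsive factors, Klf2 was 6.42 ± 0.954 CPM in WT against 28.1 ± 2.496 CPM in orpk. Klf4 was 44.5 ± 5.51 CPM in WT against 133 ± 5.88 CPM in orpk, so both were higher in orpk in static culture. The 5 genes of the lymphatic endothelial list were below the filter on low counts.

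**Figure D2:**
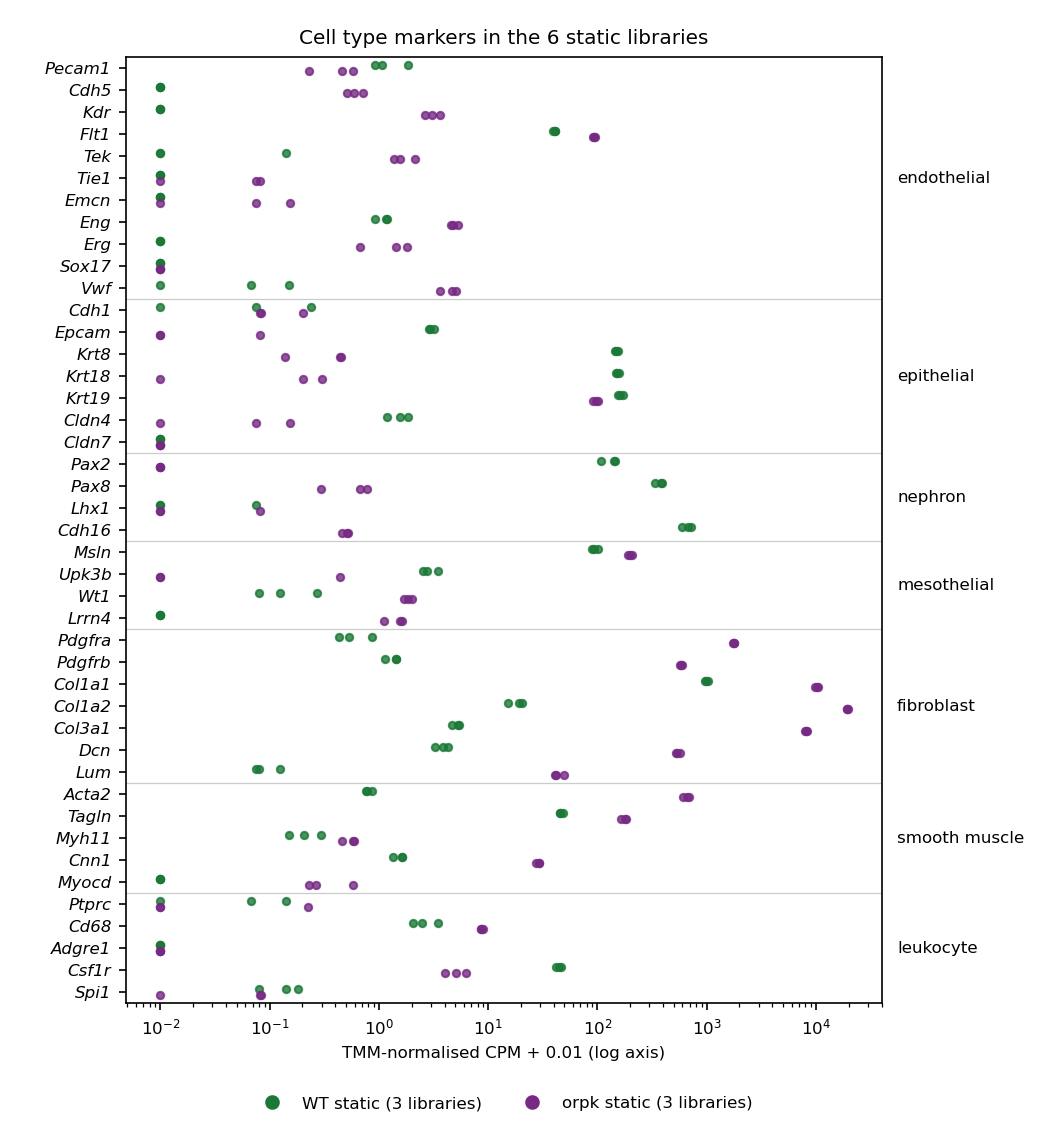
TMM-normalised CPM plus 0.01 on a log axis (x axis) of markers of 7 cell classes (y axis), with green points for the 3 WT and purple points for the 3 orpk static libraries. Points at the left edge are libraries with 0 reads, and nephron markers such as Pax8 stand high in WT while fibroblast markers such as Pdgfra stand high in orpk.

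Markers of other cell types were measured in the same way, and epithelial genes were far lower in orpk. Of 30 tested genes (of 40 listed) of epithelial adhesion and keratins, 1 was higher and 25 lower, with a median log2 fold change of -4.29 (-5.35 without orpk library 1, -5.44 with the static libraries alone and -3.18 with no filter on low reads), and 23 of them were lower by over 1. Their summed level was 2173 to 2267 CPM in WT and 390.4 to 396 CPM in orpk. Keratin 8 (Krt8), a filament protein of simple epithelia, was 146, 153 and 147 CPM in WT against 0.428, 0.129 and 0.439 CPM in orpk. Its partner keratin 18 (Krt18) was 147, 149.9 and 156 CPM in WT against 0, 0.194 and 0.293 CPM in orpk. Both were near the level of single reads in every orpk library. The desmosomal plaque gene Dsp was 519 ± 20.05 CPM in WT against 0.752 ± 0.306 CPM in orpk (log2 fold change -9.44 ± 0.11). Krt20 was 84.3 ± 0.953 CPM in WT against 0.0459 ± 0.04001 CPM in orpk, a ratio of 1818, 95% counting interval 503 to 15010, and tight-junction claudin Cldn3 had 2171 reads in WT and 0 in orpk (at least 665-fold lower). The epithelial membrane protease inhibitors Spint1 (at least 108-fold lower) and Spint2 (-9.92 ± 0.15) were lower as well.

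Not every epithelial gene followed. Krt19 was 162 ± 9.47 CPM in WT against 96.9 ± 4.92 CPM in orpk, a difference of only -0.74 ± 0.05, and P-cadherin (Cdh3) remained at 19.96 ± 0.242 CPM in orpk against 296 ± 11.2 CPM in WT. Muc1 did not pass (0.12 ± 0.16, edgeR adjusted p = 0.484), though without WT library 3 it did (0.37, edgeR adjusted p = 0.0453), and the p53-induced junction gene Perp (2.17 ± 0.10) was the one member higher in orpk. E-cadherin (Cdh1), which defines most epithelia, had 5 reads in WT and 5 in orpk, so neither genotype had it at a measurable level, and Epcam was only 2.94, 2.87 and 3.22 CPM in WT. Of 11 tested genes (of 14 listed) that regulate epithelial transcription and splicing, 10 were lower and 1 higher, with a median of -4.00 (-5.59 and -5.39 without orpk library 1 or 2, -4.62, -4.61 and -4.71 without WT library 1, 2 or 3, and -5.18 with the static libraries alone). They included Tfcp2l1 (-9.22 ± 0.16), Elf3 (ratio 491, interval 168 to 2385) and Ehf (at least 33.7-fold lower), which are transcription factors, and the splicing regulators Esrp1 (ratio 19.3, interval 3.102 to 798) and Esrp2 (-5.20 ± 0.19). The exception was Trp63 (ratio 36.5, interval 9.71 to 307), the p63 factor of basal epithelia.

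Promoters are shown for some of the epithelial genes that were lower in orpk. They are Epcam (ratio 130.4, interval 23.03 to 5187) and Cldn4 (ratio 22.4, interval 7.35 to 111), besides Krt8 and Spint2 named above. The letters CACCTG, an E-box, are known to be bound by the SNAI and ZEB repressors, whose genes are described below. Windows run from 250 bases before to 50 after the start site, from RefSeq on GRCm38.p6, and a match on either strand (CACCTG or CAGGTG) is in capitals. The genes shown were chosen after their matches were seen.
Epcam (chr17:87635729-87636028, plus strand): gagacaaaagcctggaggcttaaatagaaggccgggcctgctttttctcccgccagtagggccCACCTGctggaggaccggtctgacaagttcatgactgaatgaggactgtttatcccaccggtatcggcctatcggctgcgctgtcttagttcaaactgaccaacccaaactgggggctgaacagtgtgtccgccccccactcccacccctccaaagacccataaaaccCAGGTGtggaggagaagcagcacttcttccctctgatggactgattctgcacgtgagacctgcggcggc
Cldn4 (chr5:134946885-134947184, minus strand): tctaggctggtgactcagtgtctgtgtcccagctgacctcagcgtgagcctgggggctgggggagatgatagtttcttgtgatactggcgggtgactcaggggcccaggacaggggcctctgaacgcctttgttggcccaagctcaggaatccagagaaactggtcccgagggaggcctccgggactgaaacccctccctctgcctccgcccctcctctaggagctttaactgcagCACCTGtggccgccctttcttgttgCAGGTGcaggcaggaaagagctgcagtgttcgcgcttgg
Krt8 (chr15:102004293-102004592, minus strand): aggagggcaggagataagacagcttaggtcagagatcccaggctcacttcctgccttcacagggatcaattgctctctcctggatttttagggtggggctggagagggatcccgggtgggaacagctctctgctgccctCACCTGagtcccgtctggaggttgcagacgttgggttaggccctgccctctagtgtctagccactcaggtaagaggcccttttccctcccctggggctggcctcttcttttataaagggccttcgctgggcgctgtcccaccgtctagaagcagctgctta
Spint2 (chr7:29281928-29282227, minus strand): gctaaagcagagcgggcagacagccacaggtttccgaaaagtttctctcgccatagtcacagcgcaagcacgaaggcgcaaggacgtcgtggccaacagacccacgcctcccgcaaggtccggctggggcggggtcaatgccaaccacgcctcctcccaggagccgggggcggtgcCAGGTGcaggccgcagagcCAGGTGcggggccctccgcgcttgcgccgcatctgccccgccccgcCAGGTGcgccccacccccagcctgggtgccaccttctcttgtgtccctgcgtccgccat
The windows of Epcam and Cldn4 hold 2 matches each, that of Krt8 holds 1 and that of Spint2 3. The table had 23 windows for 19 of 33 genes of the epithelial lists that were lower by over 1, and 18 of those windows (78.3%) held the letters. Over all genes of both lists it was 30 of 39 windows (76.9%). Of all 32817 windows, 6634 (20.2%) held them. Over 30 other lists with at least 10 windows the share ran from 4.76% to 40%. The lists of collagen chains, HOX genes, ribosomal proteins and NADH dehydrogenase and cytochrome oxidase subunits were not among these 30. The median GC content was 60.3% in windows of the epithelial lists and 52.7% in all. Binding was not measured here, and a match describes the letters of a window only.

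The WT libraries also held transcripts of kidney tubule and urogenital development that the orpk libraries hardly held. Pax2, a paired-box factor of the nephric lineage, was 143, 108 and 145 CPM in WT and had 0 reads in orpk (at least 1916-fold lower). Its relative Pax8 was 393, 335 and 379 CPM in WT against 0.285, 0.775 and 0.659 CPM in orpk (log2 fold change -9.30 ± 0.10). No orpk library reached 1 CPM of either. The kidney cadherin gene Cdh16 was 666 ± 65.03 CPM in WT against 0.488 ± 0.0317 CPM in orpk, and another, Cdh6, was 254 ± 20.01 CPM in WT against 0.139 ± 0.00905 CPM in orpk. Pkhd1, the fibrocystin gene of recessive polycystic kidney disease, was 196 ± 10.2 CPM in WT against 0.189 ± 0.156 CPM in orpk, and the proximal-tubule endocytic receptor Lrp2 (megalin) was 198 ± 7.49 CPM in WT against 5.73 ± 0.0926 CPM in orpk. Sall1 (ratio 1377, interval 247 to 54410), Bmp7 (at least 107-fold lower) and Wnt7b (-7.04 ± 0.12) were lower too.

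The list was not uniform. Of 25 tested genes (of 41 listed), 9 were higher and 15 lower, with a median log2 fold change of -2.50. That median was -3.73 without orpk library 1, -3.11 without WT library 1 and -0.28 over the 38 genes tested with no filter on low reads. Their summed level was 2523 to 2982 CPM in WT and 675 to 758 CPM in orpk. Renal genes that were higher in orpk included the early mesoderm factor Osr1, at 0.271 ± 0.136 CPM in WT against 67.6 ± 2.33 CPM in orpk, and Mecom, at 0.0451 ± 0.0391 CPM in WT against 47.2 ± 1.38 CPM in orpk. The water channel gene Aqp1, which renal tubule and endothelium share, was 399 ± 74.7 CPM in WT against 406 ± 41.8 CPM in orpk and did not pass (0.02 ± 0.11, edgeR adjusted p = 0.842). Markers of mature segments were near 0 in both, with 0 and 0 reads of Umod, 2 and 2 of Aqp2 and 1 and 0 of Nphs1 in WT and orpk. The part that other cell types had in the genotype difference was not tested, and in bulk RNA fewer cells of a type and less RNA per cell cannot be told apart.

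Fibroblast and mesenchymal genes were higher in orpk. Of 27 tested genes (of 28 listed) that mark fibroblasts, 26 were higher and 1 lower, with a median log2 fold change of 8.51, and their summed level was 5852 to 6113 CPM in WT and 73000 to 74440 CPM in orpk. Pdgfra, the PDGF receptor that marks fibroblasts, was 0.522, 0.4198 and 0.862 CPM in WT against 1775, 1756 and 1793 CPM in orpk (log2 fold change 11.47 ± 0.11). Col1a2, a chain of collagen I, was 15.1, 20.3 and 19.4 CPM in WT against 19182, 19556 and 19203 CPM in orpk (log2 fold change 10.04 ± 0.14). For Pdgfra and Col1a2 the genotypes did not overlap. The partner chain Col1a1 was 992 ± 29.98 CPM in WT against 10140 ± 364 CPM in orpk, a smaller difference (log2 fold change 3.35 ± 0.05). Col3a1, the collagen III chain, was 4.63, 5.32 and 5.46 CPM in WT against 7975, 8145 and 8345 CPM in orpk. The other PDGF receptor gene, Pdgfrb (8.76 ± 0.07), the small proteoglycan gene decorin, Dcn (7.17 ± 0.08), and periostin, Postn (9.31 ± 0.09), were higher as well. Fibronectin (Fn1) was 2281 ± 109 CPM in WT against 14211 ± 468 CPM in orpk, and the collagen receptor gene Ddr2 (-0.51 ± 0.04) was the one member lower.

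Of 31 tested genes (of 44 listed) for collagen chains, 23 were higher and 7 lower, with a median log2 fold change of 3.60 (3.35 where bounds stand in for genes at 0 reads), and their summed level was 3663 to 3803 CPM in WT and 50490 to 51600 CPM in orpk. Basement-membrane genes differed in both directions. Of 23 tested genes (of 28 listed), 8 were higher and 13 lower, with a median log2 fold change of -0.45. Col4a1, a collagen IV chain found in most basement membranes, was 1.397 ± 0.249 CPM in WT against 888 ± 16.98 CPM in orpk, and its partner chain Col4a2 was 3.03 ± 0.149 CPM in WT against 359 ± 10.5 CPM in orpk. The chain genes Col4a3 (-2.29 ± 0.17), Col4a4 (-1.45 ± 0.11), Col4a5 (-0.31 ± 0.04) and Col4a6 (-0.45 ± 0.05), the first 3 of which form the network of the glomerulus, were lower instead. Laminin alpha 4 (Lama4), a chain of endothelial and mesenchymal laminins, had 0 reads in WT and 168, 172 and 174 CPM in orpk (at least 2684-fold higher). Laminin alpha 5 (Lama5) went the other way, at 1337, 1275 and 1328 CPM in WT against 35.2, 34.5 and 32.6 CPM in orpk (log2 fold change -5.26 ± 0.09). Nidogen 1 (Nid1), which links laminin to collagen IV, was 0.8003 ± 0.216 CPM in WT against 669.8 ± 4.72 CPM in orpk. Col18a1 (-5.68 ± 0.05), Npnt (-6.54 ± 0.16) and Fras1 (-7.82 ± 0.26), which encode other matrix proteins of basement membranes, were lower.

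Transcription factors of mesenchyme were mostly higher, 18 of 22 tested with 4 lower and a median of 2.402. Prrx1, a homeobox factor of fibroblast lineages, was 0.0653, 0.06997 and 0.2299 CPM in WT against 731, 748 and 788 CPM in orpk (log2 fold change 12.44 ± 0.10). Snai2 (Slug) was 0, 0.1399 and 0.115 CPM in WT against 102, 102 and 107 CPM in orpk, and Twist1 had 1 read in WT and 43.4, 43.6 and 46.1 CPM in orpk. For all 3 the WT libraries were at or near 0. The repressor genes Snai1 (3.68 ± 0.10) and Zeb2 (2.92 ± 0.06) were higher, and Zeb1 was 53.9 ± 2.502 CPM in WT against 97.1 ± 5.06 CPM in orpk. Runx1 (-1.36 ± 0.06), Foxc1 (-1.08 ± 0.06), Foxd1 (-1.45 ± 0.07) and Snai3 (at least 16.5-fold lower) were lower in orpk.

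Of 14 tested genes (of 20 listed) that mark smooth muscle and pericytes, 13 were higher and 1 lower, with a median log2 fold change of 5.82, and their summed level was 1343 to 1368 CPM in WT and 3669 to 3769 CPM in orpk. Smooth muscle actin (Acta2) was 0.849, 0.7697 and 0.747 CPM in WT against 666, 696 and 615 CPM in orpk (log2 fold change 9.70 ± 0.10), while Tagln, another contractile gene, was 46.4 ± 1.81 CPM in WT against 175 ± 9.99 CPM in orpk. Notch3, a mural-cell receptor, was 3.88 ± 0.264 CPM in WT against 399.9 ± 8.68 CPM in orpk. The defining smooth-muscle transcripts Myh11 and Myocd stayed at 23 and 15 reads in orpk and were not tested, and Smtn was lower (-1.69 ± 0.04). Of 9 tested genes (of 15 listed) that mark mesothelium and epicardium, 8 were higher and 1 lower, with a median log2 fold change of 6.65 (3.62 where bounds stand in for genes at 0 reads). They included the GATA factor genes Gata6 (at least 351-fold higher) and Gata4 (at least 95.8-fold higher), and Tbx18 (at least 134-fold higher), while Msln was 94.6 ± 6.73 CPM in WT against 198 ± 7.37 CPM in orpk. The mesothelial marker Upk3b went the other way, with 136 reads in WT and 6 in orpk. Leukocyte, neural and striated-muscle lists had only 6, 6 and 5 tested members. Ptprc, the pan-leukocyte gene, had 3 reads in WT and 3 in orpk. Of the other leukocyte markers, Csf1r had 2085 reads in WT and 220 in orpk, and Cd68 125 and 377. Adgre1 had 0 and 0 reads and Spi1 6 and 2.

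**Figure D3:**
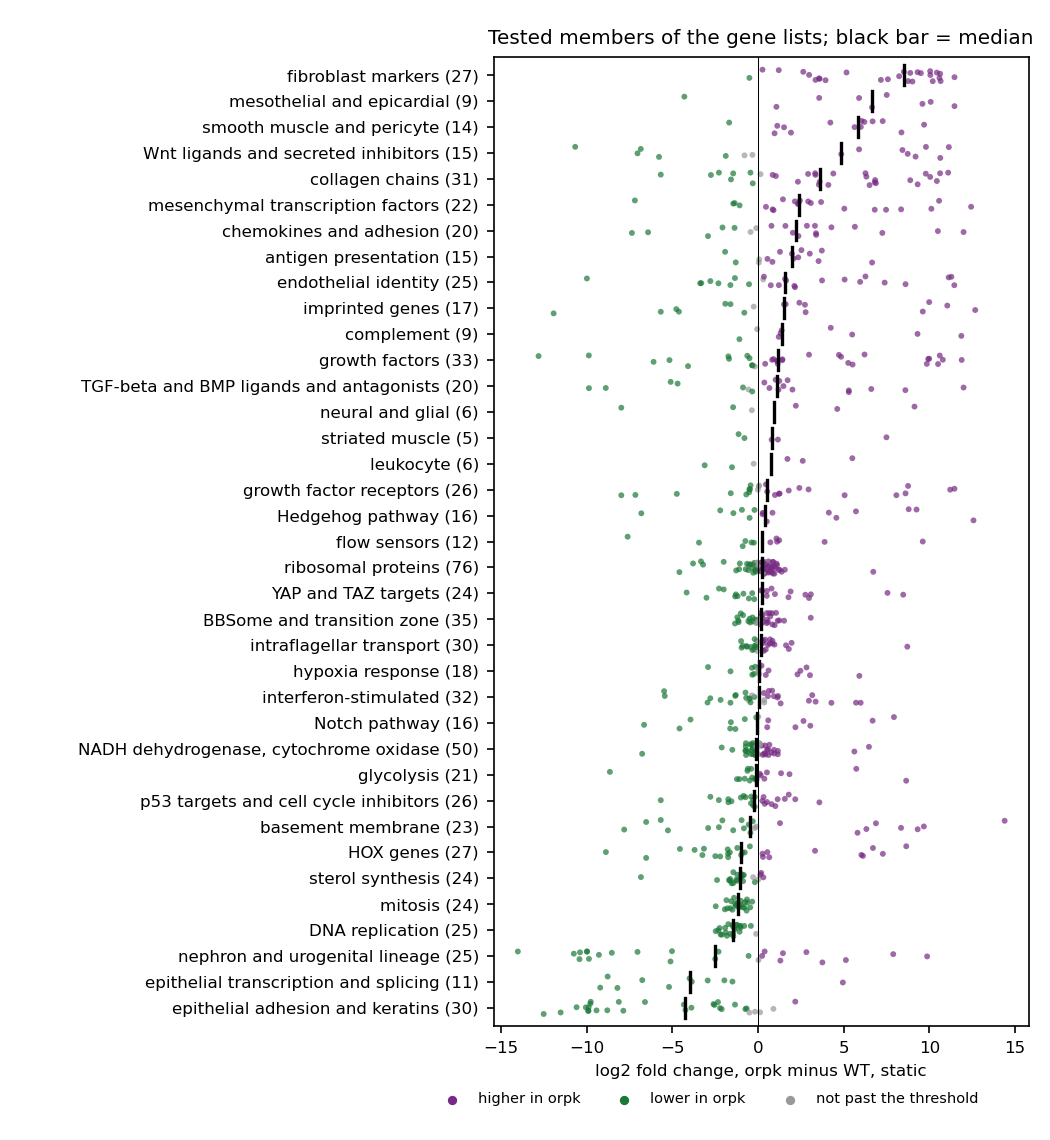
Log2 fold change of orpk against WT in static culture (x axis) of every tested member of each gene list with at least 5 of them (y axis, number tested in parentheses), with a black bar at the list median. Purple points were higher, green points lower and grey points not past the threshold, and fibroblast markers lie at the top (median 8.51) and epithelial adhesion genes and keratins at the bottom (median -4.29).

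A small part of the 13058 tested genes was well read in one genotype and almost absent from the other. In WT at most 3 reads were found for 152 genes with at least 1000 in orpk, and the reverse was found for 41 genes. Serpina3n, a secreted serine protease inhibitor, had 0 reads in WT and 273, 268 and 261 CPM in orpk (at least 4193-fold higher), and as a member of a gene cluster of close copies its reads could include those of relatives. Slit3, a secreted guidance protein, had 0 reads in WT and was at least 3679-fold higher. The glutamate transporter gene Slc1a3 (at least 1480-fold higher) and Elmo1, a regulator of Rac (at least 1469-fold higher), also had 0 reads in WT. Tmem45a had 1 read in WT and 16014 in orpk, a ratio of 17440, 95% counting interval 3129 to 688700. In the same class were Hs6st2 (at least 2143-fold higher), which modifies heparan sulfate, and Fbln1 (ratio 5066, interval 1402 to 41840), a matrix protein gene.

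In the other direction, genes with 0 reads in orpk included, besides Pax2, Slc25a48 (at least 1106-fold lower), a mitochondrial carrier gene, Amigo2 (at least 932-fold lower), an adhesion molecule gene, and Tgfa, a ligand of the EGF receptor, at 58.3, 58.01 and 55.6 CPM in WT and 0 reads in orpk (at least 824-fold lower). The single-minded factor Sim2 had 7357 reads in WT and 1 in orpk (a ratio of 6757, 95% counting interval 1212 to 266900). Cadm1, an adhesion protein, had 5284 and 1 reads (a ratio of 4853, 95% counting interval 871 to 191700). At the upper end of the level scale, per kilobase of exon, Scd2, a fatty acid desaturase, led in WT at 1491 CPM per kb against 852 in orpk. In orpk the leading genes were Lgals1 (galectin 1, 1833 CPM per kb), Rplp1 (1641), Col1a2 (1554) and Col1a1 (1545), followed by P4hb (1509), a subunit of the collagen prolyl hydroxylase. Col1a2 stood at 1.47 CPM per kb in WT.

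**Figure D4:**
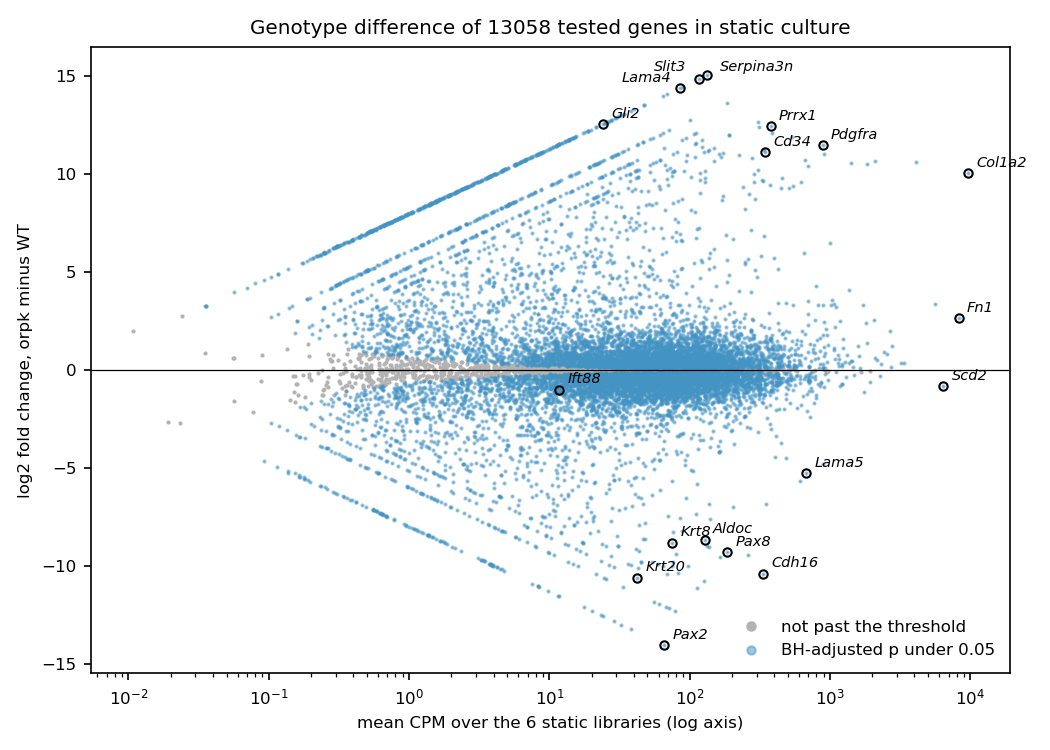
Log2 fold change of orpk against WT (y axis) by mean CPM over the 6 static libraries (x axis, log scale) for the 13058 tested genes, blue where past the threshold and grey where not, with named genes circled. The straight bands at the upper and lower edges are genes with few or 0 reads in one genotype, where the fitted value is set by the prior count, and Ift88 lies among the bulk of genes.

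Ligand and receptor genes differed in both directions. Of 33 tested genes (of 39 listed) for growth factors, 21 were higher and 11 lower, with a median log2 fold change of 1.14. Pleiotrophin (Ptn), a heparin-binding growth factor, was 0.273 ± 0.126 CPM in WT against 1079 ± 64.8 CPM in orpk. The fetal growth factor gene Igf2 was 0.553 ± 0.199 CPM in WT against 571 ± 18.5 CPM in orpk. Hepatocyte growth factor, Hgf (ratio 1998, interval 358 to 78960), was higher too. The angiogenic ligand genes Vegfc (ratio 2137, interval 383 to 84460), Angpt1 (9.85 ± 0.17) and Angpt2 (4.85 ± 0.20) were higher as well, while Vegfa (-0.36 ± 0.03) was slightly lower. Platelet-derived growth factor B (Pdgfb), which endothelium makes for PDGFRB-bearing mural cells, was 123, 124 and 117 CPM in WT against 1.71, 1.94 and 1.61 CPM in orpk (log2 fold change -6.10 ± 0.10). Ligand Pdgfb was thus on the WT side and the receptor Pdgfrb on the orpk side, with no overlap of libraries in either. Fgf1 and Tgfa were also lower, with 1 and 0 reads in orpk. Of 26 tested genes (of 34 listed) for their receptors, 14 were higher, 9 lower and 3 did not pass. Fgfr1 was 0.273 ± 0.126 CPM in WT against 677 ± 11.1 CPM in orpk, whereas Fgfr3 (-7.16 ± 0.22), Fgfr2 (-1.60 ± 0.05) and Erbb3 (-4.75 ± 0.18) were lower. The hepatocyte growth factor receptor Met was 302 ± 5.89 CPM in WT against 317 ± 1.07 CPM in orpk and did not pass (0.07 ± 0.04, edgeR adjusted p = 0.0845). Its call varied with the scaling, since it passed as higher with RLE factors (0.10, edgeR adjusted p = 0.0148), with DESeq2 (adjusted p = 0.0203) and with the static libraries alone (edgeR adjusted p = 0.00988), and as lower with library totals (-0.15, edgeR adjusted p = 4.05e-04).

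Of 20 tested genes (of 26 listed) for TGF-beta and BMP ligands and antagonists, 13 were higher and 6 lower, with a median log2 fold change of 1.11. Gremlin 1 (Grem1), a secreted BMP antagonist, was 0, 0.06997 and 0.172 CPM in WT against 392, 379 and 369 CPM in orpk (log2 fold change 11.997 ± 0.12). Tgfb2 (6.61 ± 0.09) and the TGF-beta-binding matrix gene Ltbp2 (5.30 ± 0.21) were higher, and Bmp6 (-5.11 ± 0.16) and Inhbb (ratio 556, interval 154 to 4593) were lower. Of 15 tested genes (of 32 listed) for Wnt ligands and secreted regulators, 8 were higher and 5 lower, with a median log2 fold change of 4.86 (2.86 where bounds stand in for genes at 0 reads). Wnt5a, a non-canonical ligand, was 0.0642 ± 0.00632 CPM in WT against 64.1 ± 3.2 CPM in orpk, and the R-spondin amplifiers Rspo3 (ratio 3080, interval 552 to 121700) and Rspo2 (at least 197-fold higher) were higher, while Wnt10a (ratio 2197, interval 394 to 86810), Wnt6 (ratio 154, interval 27.3 to 6130) and Wnt4 (-5.79 ± 0.28) were lower. Of 16 tested genes (of 20 listed) of the Notch pathway, 7 were higher and 8 lower. The ligand Jag2 (-4.59 ± 0.10) and the feedback gene Nrarp (ratio 135, interval 23.9 to 5368) were lower, and Notch3 and the vascular target Hey2 (ratio 335, interval 59.7 to 13290) were higher.

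HOX genes, whose expression keeps a record of position along the body, differed in both directions. Of 27 tested genes (of 39 listed), 10 were higher and 17 lower, with a median log2 fold change of -0.99. The posterior genes Hoxa9 (-4.56 ± 0.07) and Hoxa10 (-6.54 ± 0.10) were lower in orpk. Hoxb13 was 48.6, 49.1 and 45.2 CPM in WT against 0.0713, 0.0646 and 0.146 CPM in orpk (log2 fold change -8.89 ± 0.20), and Hoxb9 was 229 ± 7.47 CPM in WT against 49.3 ± 2.43 CPM in orpk. In the HOXC cluster Hoxc4 (6.12 ± 0.19), Hoxc5 (6.71 ± 0.24), Hoxc6 (7.29 ± 0.12), Hoxc8 (ratio 477, interval 132 to 3944) and Hoxc9 (3.33 ± 0.41) were all higher in orpk, while Hoxc13 (-1.76 ± 0.30) was lower. Hoxc6 was 0.653, 0.4198 and 0.345 CPM in WT against 73.2, 74.8 and 74.8 CPM in orpk.

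Imprinted genes, which are read from one parental copy, differed in both directions. Of 17 tested genes (of 29 listed), 9 were higher and 7 lower, not far from the shares over all tested genes (44.4% and 43.4%). Dlk1, a Notch-related growth regulator, was 0.08496 ± 0.0746 CPM in WT against 611 ± 29.4 CPM in orpk, and the receptor adaptor Grb10 was 0.829 ± 0.388 CPM in WT against 1816 ± 59.9 CPM in orpk. Peg3 had 5728 reads in WT and 1 in orpk (a ratio of 5261, 95% counting interval 944 to 207800), and Peg10 and the cell cycle inhibitor Cdkn1c were lower (-4.77 ± 0.04 and -5.68 ± 0.10). The Y-linked genes Kdm5d (-3.16 ± 0.09), Eif2s3y (-3.13 ± 0.08), Uty (-2.96 ± 0.10) and Ddx3y (-2.52 ± 0.07) were read in all 6 libraries and were lower in every orpk library. Ddx3y was 75.01, 71.5 and 70.3 CPM in WT against 12.1, 13.05 and 12.7 CPM in orpk. The labels do not give the sex of the animals.

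Of the immune genes, interferon-stimulated genes were 14 higher and 14 lower of 32, with a median near 0 (0.06, and -0.16 with library totals). Irf7 and Oasl1 (-5.49 ± 0.20) were lower and Gbp2 (5.72 ± 0.13), a guanylate-binding protein gene, and Mx1 (ratio 75.1, interval 20.4 to 626) higher, with Irf7 at 12.6 ± 3.34 CPM in WT against 0.279 ± 0.0782 CPM in orpk. Of 15 tested genes (of 15 listed) for antigen presentation, 11 were higher and 2 lower. H2-D1, a class I heavy chain, was 109, 114 and 107 CPM in WT against 1296, 1245 and 1280.1 CPM in orpk (log2 fold change 3.53 ± 0.04), and its partner B2m was 195 ± 8.34 CPM in WT against 769.9 ± 17.9 CPM in orpk. Class I genes are close copies of each other, so their single levels are uncertain. The transactivator of the class, Nlrc5, was 0.419 ± 0.157 CPM in WT against 43.7 ± 0.43 CPM in orpk, and the peptide transporter gene Tap2 was 9.505 ± 1.04 CPM in WT against 126 ± 6.72 CPM in orpk.

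Of 20 tested genes (of 26 listed) for chemokines, cytokines and leukocyte adhesion, 13 were higher and 5 lower, with a median log2 fold change of 2.19. Cxcl12, the stromal ligand of CXCR4, was 0.0653, 0 and 0.172 CPM in WT against 371, 383 and 389 CPM in orpk (log2 fold change 12.001 ± 0.17). Il33 (at least 179-fold higher), Ccl7 (7.26 ± 0.11) and Vcam1 (4.28 ± 0.10) were also higher, and Ccl20 (at least 18.7-fold lower) and Cxcl2 (-6.43 ± 0.29) lower. The leukocyte adhesion gene Icam1 (-1.37 ± 0.57) was lower, a call lost with DESeq2 (adjusted p = 0.0608) and without orpk library 3, WT library 2 or WT library 3 (edgeR adjusted p = 0.075, 0.0566 and 0.0718). Of 9 tested genes (of 19 listed) for complement, 7 were higher and 1 lower, with C4b (at least 462-fold higher) among those higher.

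Replication and mitosis genes were lower in orpk. Of 25 DNA replication genes, 24 were lower and 0 higher, with a median of -1.45, and the exception was cyclin E1, Ccne1 (-0.12 ± 0.06, edgeR adjusted p = 0.0626). Ccne1 passed as lower without orpk library 3 or WT library 1 (edgeR adjusted p = 0.035 and 0.025), and with library totals (-0.33, edgeR adjusted p = 3.51e-06). The replicative helicase subunit Mcm7 was 418, 408 and 419.8 CPM in WT against 85.2, 83.1 and 80.8 CPM in orpk. No orpk library reached the WT range. The licensing factor gene Cdc6 (-2.47 ± 0.06) and the nucleotide reductase subunit gene Rrm2 (-2.25 ± 0.04) were lower. All 24 mitosis genes were lower, with a median of -1.16. The spindle motor gene Kif11 was 359.8, 367 and 357 CPM in WT against 66.4, 67.8 and 60.8 CPM in orpk (log2 fold change -2.47 ± 0.04), and the proliferation marker Mki67 was 972 ± 18.3 CPM in WT against 279.6 ± 14.2 CPM in orpk. Inhibitors of the cycle did not share a direction. The INK4 and ARF loci Cdkn2a (1.01 ± 0.04) and Cdkn2b (1.79 ± 0.05) were higher, and Cdkn1a (-1.74 ± 0.05), Cdkn2c (-2.29 ± 0.06) and Cdkn1c (-5.68 ± 0.10) lower. Over 26 p53 targets and inhibitors, 11 were higher and 15 lower.

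Of 24 tested genes (of 24 listed) for sterol synthesis and uptake, 19 were lower and 3 higher (median -1.03). Sqle (-1.70 ± 0.03), Lss (-1.63 ± 0.04) and Cyp51 (-2.397 ± 0.04), which act on squalene and lanosterol, were lower. The regulator Srebf2 was 0.18 ± 0.03, and its value turned negative with library totals as the scaling.

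Glycolysis genes had 8 of 21 higher and 11 lower (6 and 14 with library totals). Aldolase C (Aldoc) was 264, 258 and 244 CPM in WT against 0.642, 0.452 and 0.805 CPM in orpk (log2 fold change -8.65 ± 0.10), whereas the main aldolase Aldoa was 1962 ± 98.6 CPM in WT against 1882 ± 17.1 CPM in orpk and did not pass (edgeR adjusted p = 0.115), though it passed as lower without WT library 3 (edgeR adjusted p = 0.032) and with library totals (-0.28, edgeR adjusted p = 2.40e-09). The glucose transporter gene Slc2a3 was 0.409 ± 0.07399 CPM in WT against 165 ± 5.21 CPM in orpk. The lactate exporter gene Slc16a3 was 14.8 ± 1.89 CPM in WT against 788 ± 4.01 CPM in orpk. In the hypoxia list 8 of 18 were higher and 6 lower (median 0.07), or 7 and 9 with library totals (median -0.14), with the vasodilator peptide gene Adm (5.91 ± 0.15) higher and Egln3 (-2.92 ± 0.05), an oxygen sensor, lower. Car9, a carbonic anhydrase induced by low oxygen, did not pass (0.07 ± 0.10, edgeR adjusted p = 0.492).

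Of 76 ribosomal protein genes, 39 were higher, 20 lower and 17 did not pass (median 0.23). With library totals 27 were higher and 29 lower (median 0.01). Single members such as Rpl26 (6.73 ± 0.09) and Rps2 (-4.59 ± 0.07) lay far out, but these genes have many processed copies and their reads are uncertain. Of 50 nuclear subunits of NADH dehydrogenase and cytochrome oxidase, 16 were higher and 21 lower (median -0.10), or 14 and 31 with library totals (median -0.32). Targets of the YAP and TAZ coactivators, which respond to tension and cell shape, had 13 of 24 higher and 11 lower (11 and 11 with library totals). Ccn2 was 50.6 ± 6.296 CPM in WT against 10.3 ± 2.304 CPM in orpk (log2 fold change -2.28 ± 0.13), Igfbp3 (ratio 488, interval 87.1 to 19310) and Nt5e (at least 23.2-fold higher) were higher, and Ccn1, the relative of Ccn2, was 0.16 ± 0.04 and turned to -0.05 with library totals.

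The genotype difference in static culture was compared with the differences at 2 and at 30 dyn/cm2, which rest on other libraries. Of the genes higher in static orpk by over 1, 2792 (96.98%) were also higher in orpk at 2 dyn/cm2, and 2667 (92.6%) at 30 dyn/cm2. Of those lower by over 1, 2381 in all, 2238 (93.99%) and 2202 (92.5%) were also lower there. The size of the difference varied between the static and the flow libraries for many genes. The time of the static cells is not given, so shear and time in culture cannot be told apart here. Of all tested genes, 52.6% passed the threshold for a static difference unlike that at 2 dyn/cm2. The share was 57.5% for one unlike that at 30 dyn/cm2. The static difference was the more negative in 27.1% and 30.6% of genes. Against 30 dyn/cm2 that made 3992 genes with the more negative and 3512 with the more positive static difference, or 3275 and 4382 with library totals. By over 1 on the log2 scale, 1023 (7.83%) and 1627 (12.5%) differed. For Ift88 the static difference minus the flow difference was -0.09 ± 0.14 and -0.04 ± 0.15, and neither passed (edgeR adjusted p = 0.648 and 0.843).

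Sterol and replication genes had static differences unlike those under flow, in 2 comparisons that share the static libraries. The static median of -1.03 for sterol genes faced 0.35 at 2 dyn/cm2 and 1.16 at 30 dyn/cm2. The static difference was the more negative for 23 of 24 genes against 2 dyn/cm2 and for 24 of 24 against 30 dyn/cm2. Only 1 of them was lower in orpk at 30 dyn/cm2 and 21 were higher. Sqle was 1174 ± 23.3 CPM in WT against 362 ± 8.84 CPM in orpk without flow, 683 ± 8.75 and 480.2 ± 11.3 CPM at 2 dyn/cm2, and 618 ± 7.02 and 830.2 ± 23.4 CPM at 30 dyn/cm2. WT held more Sqle than orpk without flow and at 2 dyn/cm2 and less at 30 dyn/cm2, and the orpk-minus-WT value was in turn -1.70 ± 0.03, -0.51 ± 0.03 and 0.43 ± 0.03. Replication genes had static, 2 and 30 dyn/cm2 medians of -1.45, -0.36 and -0.78, with the static difference more negative for 25 and 24 of 25. Mitosis genes had medians of -1.16, -0.89 and -1.76, so here the static difference was the smaller one against 30 dyn/cm2, more negative in 2 of 17 genes that passed. Fibroblast markers (8.51, 8.20 and 7.63) and epithelial adhesion genes (-4.29, -6.02 and -6.39) had medians on one side at each shear. The number of epithelial adhesion genes higher in orpk was 1 in static culture, 4 at 2 dyn/cm2 and 3 at 30 dyn/cm2.

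Single genes departed further. Car9 was 13.4 ± 0.805 CPM in WT against 14.02 ± 0.628 CPM in orpk in static culture and 0.456 ± 0.195 and 8.44 ± 0.929 CPM at 2 dyn/cm2, so a difference of 0.07 ± 0.10 that did not pass in static cells faced one of 4.21 ± 0.21 at 2 dyn/cm2. Aldoc differed by -8.65 ± 0.10 in static cells and by -3.96 ± 0.16 at 2 dyn/cm2, where WT held 12.1 ± 1.33 CPM. Ccl5, a chemokine, was 7.64, 7.14 and 6.72 CPM in static WT and 28.3, 31.1 and 28.2 CPM in static orpk (2.03 ± 0.15), and the sign was opposite at 2 and 30 dyn/cm2 (-1.34 ± 0.16 and -3.00 ± 0.32). Gja1, the gap-junction protein connexin 43, differed by 4.79 ± 0.08 in static cells and by 1.57 ± 0.10 and 1.44 ± 0.07 under flow. Pdgfra was 11.47 ± 0.11, 8.85 ± 0.10 and 7.20 ± 0.11 in the order static, 2 and 30 dyn/cm2. The skeletal actin gene Acta1 was 0.526 ± 0.157 CPM in WT against 0.9296 ± 0.2301 CPM in orpk in static cells (0.79 ± 0.37, a call lost without orpk library 2 or 3 or WT library 2 or 3, with edgeR adjusted p from 0.0639 to 0.179), while at 30 dyn/cm2 it was 0.554 ± 0.223 and 21.5 ± 1.63 CPM. The static call was also lost with library totals and with a replicate block (edgeR adjusted p = 0.139 and 0.05).

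**Figure D5:**
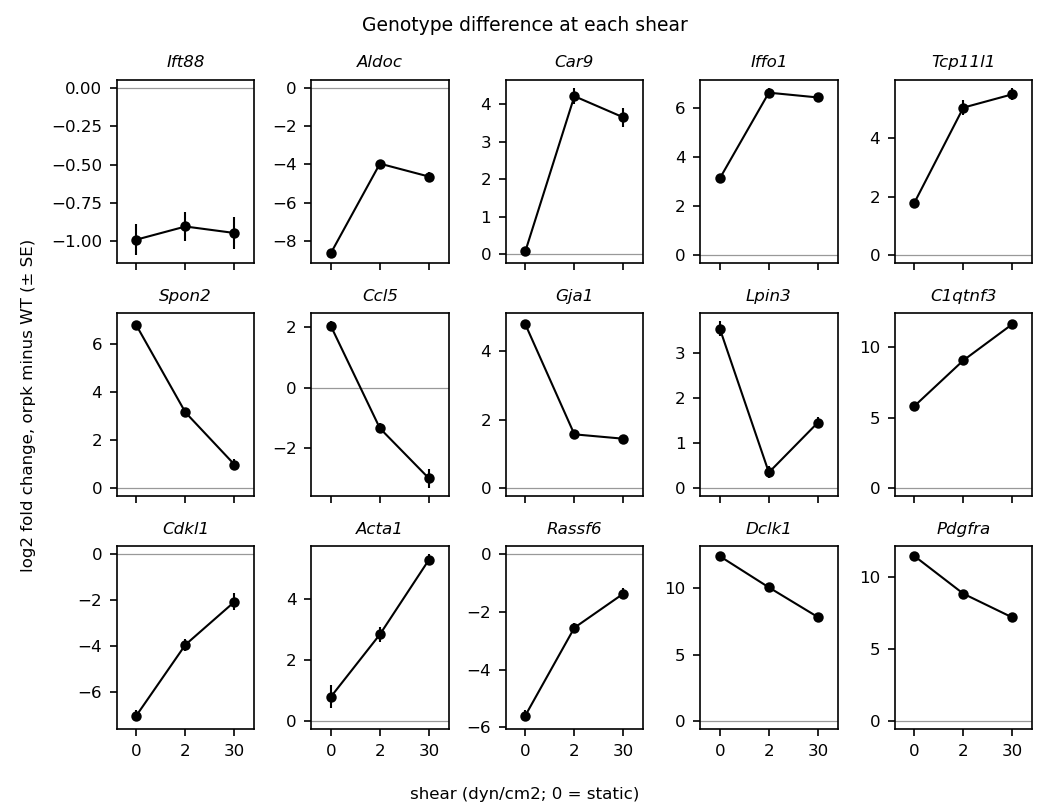
Log2 fold change of orpk against WT (y axis, ± SE, a scale of its own in each panel) in static culture and at 2 and 30 dyn/cm2 (x axis, equally spaced) for Ift88 and the 14 genes with the 4 highest and 4 lowest values of the static minus the flow difference at either shear. Highest and lowest refer to genes past the threshold that met the naming rule, with at least 5 CPM on average and at least 4 reads in each group. Ift88 stays near -1 at each shear, whereas Ccl5 crosses 0 between static culture and 2 dyn/cm2.

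Differences were measured on every chromosome. Over 9738 genes of at least 10 CPM, the median log2 fold change of a chromosome ran from -0.40 on chromosome 7 to 0.47 on chromosome 4 among the autosomes and X. On chromosome 7, 165 of these genes were higher and 456 lower, and on chromosome 4, 423 and 149. The median of chromosome 14, which holds Ift88, was -0.14. Within 1 Mb of Ift88, 16 other genes were tested, and 6 were higher and 9 lower (median -0.23). Among them the cell cycle genes Ska3 (-1.17 ± 0.07) and Cenpj (-0.95 ± 0.06) were lower, and Il17d (4.48 ± 0.26), a cytokine gene that starts just past Ift88, was higher. The nearer gene on the other side, Cryl1 (1.28 ± 0.24), was higher too.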

How the data were processed

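RNA from 18 libraries of cells labelled mouse embryonic aortic endothelium was read as 50-nt single ends. The authors deposited raw read counts per gene, made with CASAVA 1.8.2, STAR 2.4 and featureCounts 1.4.6 on GRCm38, per the submitters' processing notes. Strand use and the treatment of reads with several matches are not given in the sources used here. Of 241 named genes with a place in the annotation, 126 overlap another annotated gene, 104 one on the other strand, and their reads could include those of the other gene.

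Genes were filtered with filterByExpr and scaled by TMM, and edgeR 4.0.16 (R 4.3.3) quasi-likelihood models were fitted to 6 group means over all 18 libraries with robust dispersions (12 residual degrees of freedom, common biological coefficient of variation 3.28%). The contrasts were orpk minus WT in static culture, and that difference less the one at each shear, with Benjamini-Hochberg adjustment over all tested genes. Errors of log2 values are SE, computed as the absolute log2 value divided by the square root of its F statistic. For genes with few reads in a genotype they can understate the uncertainty. Pdgfra, with 29 reads in WT, has an SE of 0.11, which is below the counting error of those reads. Replicates within a static group differed by more than counting error (chi-square per degree of freedom 1.54 to 2.33). The code was tested on simulated data. Where a genotype had 0 reads, the fold is a lower bound computed as if its 3 libraries together held 3 reads. With 1 to 3 reads a ratio and its exact 95% interval are given. Both cover counting error only.

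Named were Ift88, list members, the genes with the largest differences and the strongest on and off patterns, the most abundant per kb, those with the largest interactions, and genes within 1 Mb of Ift88. The members and lists were chosen with earlier results of these data known. Alternatives were RLE factors, library totals, no filter, DESeq2 1.42.0, static libraries alone, a replicate block, glmTreat and leaving out each static library. Positions and symbols come from the GENCODE annotation of GRCm38, where 64 of the listed genes had no match, and promoters from RefSeq. Some members that enter the counts are not reported here by name.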

Additional observations from a re-analysis of the deposited data

Results flagged for a closer look

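The genotype difference without flow was tested against that under flow, as the static orpk minus WT difference less the same difference at 2 or 30 dyn/cm2 (edgeR quasi-likelihood interaction, adjusted p under 0.05). It passed for 6864 genes against 2 dyn/cm2 and for 7504 against 30 dyn/cm2, or 52.6% and 57.5% of all tested genes. Of 241 tested genes named in the text, it passed for 107 and 128, smaller shares than over all tested genes. Some of the 241 were named because of this difference. All values below are log2 differences of differences, a negative one meaning that the static difference was the more negative.

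Against 2 dyn/cm2 the lowest values were those of Aldoc (-4.7), the carbonic anhydrase gene Car9 (-4.14), Iffo1 (-3.49) and Tcp11l1 (-3.26). The highest were those of Spon2 (3.62), a secreted matrix protein gene, the chemokine gene Ccl5 (3.37), Gja1 (3.22) and the phosphatidate phosphatase gene Lpin3 (3.21). Against 30 dyn/cm2 the lowest were those of C1qtnf3 (-5.83), Cdkl1 (-4.95), Acta1 (-4.48) and Rassf6 (-4.23), and the highest those of Spon2 (5.79), Ccl5 (5.03), the kinase gene Dclk1 (4.58) and Pdgfra (4.27). Lowest and highest refer to genes picked by the naming rule, with at least 5 CPM on average and at least 4 reads in each group.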

How the results depend on the processing

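Counts of higher and lower genes in static culture were 5795 and 5670, and stayed within 1.5 times under each alternative run: 5933 and 5495 with RLE factors, 5840 and 5385 with DESeq2, 6313 and 5878 with no filter, 5709 and 5450 with the static libraries alone, and 4760 and 6765 with library totals. That last scaling moved the median log2 fold change of all genes to -0.21 and the share of calls that were higher from 50.55% to 41.3%. Leaving out each static library in turn gave 5724 to 5770 higher and 5546 to 5612 lower. Tested against a 2-fold change with edgeR glmTreat, 2646 were higher and 2041 lower. The labels name no pairing of replicates. Deviations of same-numbered static libraries correlated at 0.0297, 0.012 and -0.0302, within the range of the other pairings (-0.0516 to 0.0346). Such values cannot show whether libraries were paired. A replicate block gave 5792 and 5670 in static culture, 3317 and 3552 against 2 dyn/cm2, and 3500 and 4005 against 30 dyn/cm2. Among 241 tested genes named in the text, 2865 combinations of gene and alternative kept direction and call in static culture. Of the others, 11 lost the call, 9 gained it and 3 changed sign. The sign changes were all with library totals: Met -0.15, Srebf2 -0.033 and Ccn1 -0.051. Calls for a static difference unlike that under flow changed more often. Against 2 dyn/cm2, 46 combinations lost the call, 37 gained it and 2568 were unchanged. Against 30 dyn/cm2 these numbers were 53, 35 and 2563. With no filter the median became 4.22 for smooth muscle, 5.69 for mesothelial, 0.10 for Wnt and 2.92 for collagen genes, and with the static libraries alone it was 7.45 for mesothelial and 6.65 for Wnt genes. With library totals 6 complement genes were higher and 2 lower. With few reads in a genotype, sizes are bounds or wide intervals, and members below the filter were not tested.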
